A study of Mus musculus with 8 samples.

Results

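The 42 mouse genes taken here encode the integrins, the laminins, the hemidesmosome proteins dystonin (*Dst*) and plectin (*Plec*), and the basement membrane linkers *Nid1*, *Nid2* and *Hspg2*. They were chosen by gene symbol, and 39 of them had at least 1 probe set carrying that symbol alone, with 86 probe sets in all, among 18193 genes and 45037 probe sets measured. The others, *Itga11* and *Itgad* among them, were not analysed here. Whole prostate of 4 *Olfm4*-knockout (*Olfm4*-/-) and 4 wild-type (*Olfm4*+/+) mice, all 3 months old, was measured on Affymetrix Mouse Genome 430 2.0 arrays. Both genotypes shared a mixed background, in equal parts Black Swiss of the National Institutes of Health and 129/SV. The mice came from matings between carriers of 1 deleted copy. No promoter or Cre that would restrict the deletion to a cell type is named. Each of the 2 array days held 2 knockout and 2 wild-type arrays, and the comparison asks how adhesion and basement membrane genes differ in prostate tissue that lacks *Olfm4*.

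Integrins are cell surface receptors made of an alpha and a beta chain, and they bind proteins of the extracellular matrix or of other cells. Laminins are trimers of an alpha, a beta and a gamma chain that form the sheet of the basement membrane, to which nidogens and perlecan link type IV collagen. In the prostate, basal epithelial cells sit on this membrane and are held to it by hemidesmosomes, in which the integrin of *Itga6* and *Itgb4* binds laminin that holds the *Lama3* and *Lamb3* chains outside the cell while plectin and dystonin tie it to keratin filaments inside.

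*Olfm4* itself read 3.09, 3.00, 3.25 and 3.09 on knockout arrays 1 to 4 and 10.32, 10.23, 10.74 and 10.65 on wild-type arrays 1 to 4, in log2 units, so every array matched its genotype label. Array medians lay between 6.03 and 6.09, and the correlation between arrays over all probe sets between 0.983 and 0.996. Knockout array 1 and wild-type array 1 stood apart from the others in seminal vesicle markers, whose mean log2 level was 13.81 and 14.15 on these arrays and 7.88 to 10.04 on the other 6. The 2 adipose markers measured stood at 10.36 and 11.12 on them and at 5.52 to 8.13 elsewhere. Knockout array 1 also had the highest mean of the smooth muscle markers (12.75, against 12.21 to 12.44 elsewhere), the fibroblast markers (10.62, against 10.03 to 10.56) and the endothelial markers (7.84, against 7.34 to 7.53). Knockout array 3 stood apart in the 5 skeletal muscle markers, at 9.63 against 7.32 to 8.14 elsewhere. The 6 luminal epithelial markers measured had gene means of 12.61 to 14.22 and differed little between arrays, from 13.54 to 13.62. In bulk tissue fewer cells of a type cannot be told apart from less RNA per cell.

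No member passed the test across all genes. At an adjusted p under 0.05 in limma, 0 of 86 member probe sets were called, against 0.111% of all 45037 probe sets. With the limit at an unadjusted p of 0.05 there were 16 member probe sets (18.6%), against 12.8% on the whole array, and analysis of variance without array day (the methods name analysis of variance and no covariate) gave 16 as well and called 0. Of the 16, 12 (14.0%) had a higher mean in the knockout, against a background of 5.46%, and 4 (4.65%) a lower mean, against 7.34%. The 16 probe sets belonged to 13 genes, with 4 of them from *Dst* alone. Each differed in the same direction on both array days, which their choice by a fit over both days favours. The knockout and wild-type arrays did not overlap for 4 probe sets that were higher (4.65%, background 3.69%) and 3 that were lower (3.49%, background 5.03%). The count of 12 was 7 without knockout array 1, and it was 7 as well without wild-type array 1, 2 or 4. The count of 4 was 9 without wild-type array 1, 6 without knockout array 4 and 2 without wild-type array 2 or 4. Taking both directions, the share of members was 14.0% without knockout array 1, against 13.2% of all probe sets. It was 18.6% without wild-type array 1 (background 12.9%) and 17.4% without knockout array 4 (background 9.27%). Without wild-type array 2 it was 10.5% (background 9.08%), and without wild-type array 4 it was 10.5%, below the background of 13.6%.

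With each gene represented by its brightest probe set, 22 of the 39 genes had a higher mean in the knockout (56.4%, against 46.2% of all genes) and 17 a lower one. None was called, against 0.17% of all genes, and 9 (23.1%) had an unadjusted p under 0.05, against 14.8%. Of the 9, 6 (15.4%) were higher, against 6.27%, and 3 (7.69%) lower, against 8.49%. Groups did not overlap for 3 genes that were higher (7.69%, background 4.49%) and 2 that were lower (5.13%, background 6.29%). The median log2 fold change, knockout minus wild type, was 0.036 for the members and -0.015 for all genes. It was -0.053 for the members on array day 1 and 0.11 on array day 2. Without knockout array 1 the balance turned, with 12 genes higher, 27 lower and a median of -0.077. The member with the smallest adjusted p was *Lama3*, at 0.237.

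**Figure D1:**
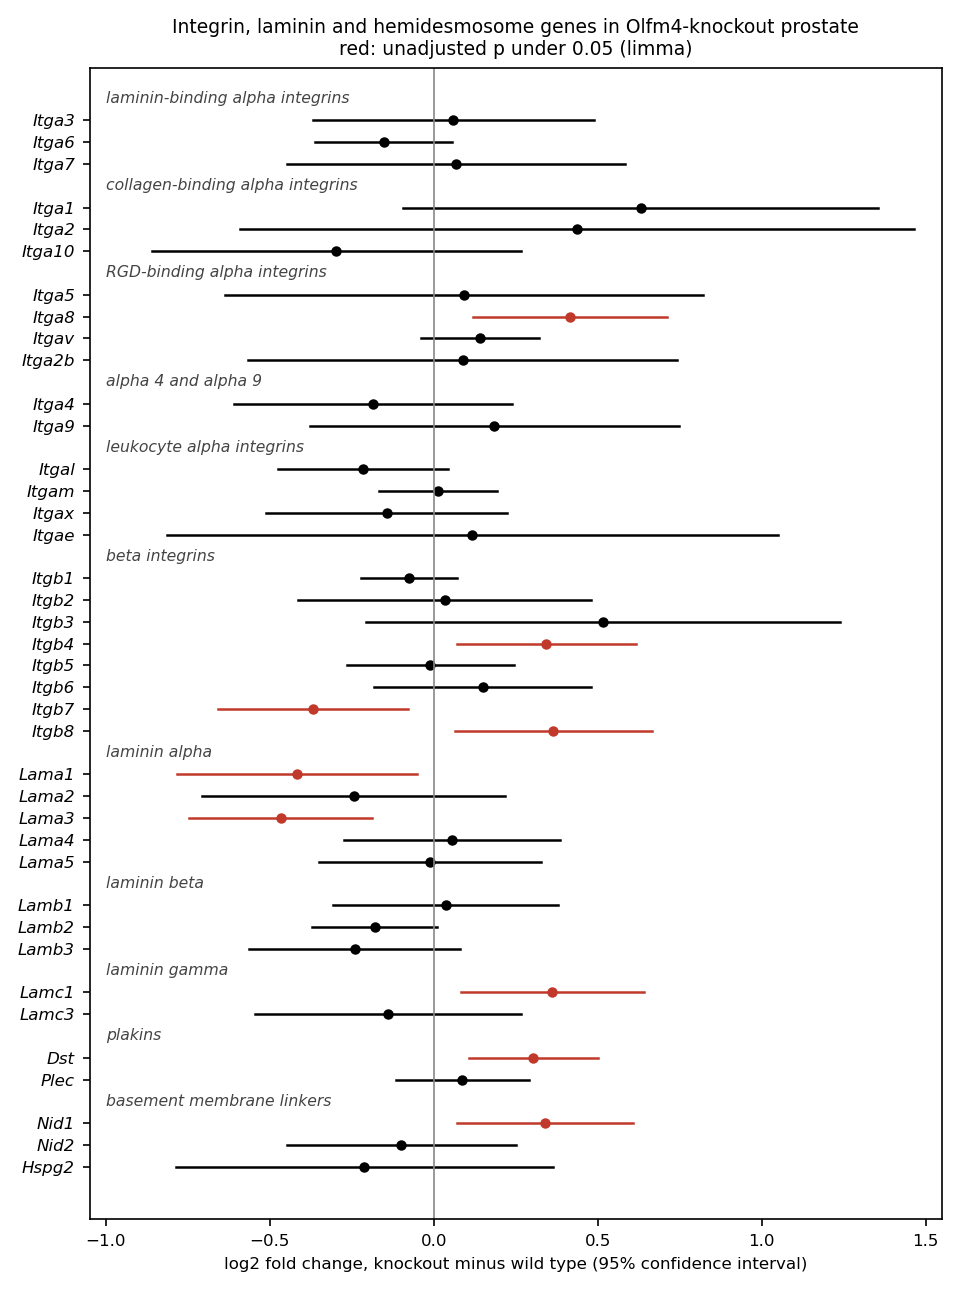
Log2 fold change (knockout minus wild type, limma with array day) of the brightest probe set of each of the 39 member genes, grouped by role, with 95% confidence intervals as bars. *Itga1* has the highest value (0.63) and *Lama3* the lowest (-0.47), and none of the 39 has an adjusted p under 0.05.

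All 4 probe sets of *Dst* had a higher mean in the knockout. The gene encodes dystonin, a plakin whose epithelial form anchors keratin filaments to the hemidesmosome. The brightest read 12.66, 12.84, 12.50 and 12.55 in the knockout and 12.26, 12.25, 12.43 and 12.39 in the wild type, in array order 1 to 4. Every knockout array lay above every wild-type array, with means of 12.64 ± 0.151 and 12.33 ± 0.0884 (SD, n = 4 each). This gave a log2 fold change of 0.30 (SE 0.0843, unadjusted p = 0.00784, adjusted p = 0.262).

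The other *Dst* probe sets showed larger differences with a wider spread. Probe set 1450119_at read 7.03, 7.05, 6.69 and 7.93 in the knockout and 6.66, 6.38, 6.33 and 6.52 in the wild type, again without overlap, and its log2 fold change was 0.70 (SE 0.23, unadjusted p = 0.0183, adjusted p = 0.303). Probe set 1421117_at read 10.08, 9.84, 9.50 and 10.58 in the knockout and 9.26, 9.11, 9.44 and 9.61 in the wild type. Here knockout array 3 lay below wild-type array 4, and the log2 fold change was 0.64 (SE 0.23, unadjusted p = 0.023, adjusted p = 0.318). Probe set 1421276_a_at read 8.12, 8.04, 7.64 and 7.79 in the knockout and 7.30, 7.22, 7.61 and 7.74 in the wild type, with knockout array 3 below wild-type array 4, and its log2 fold change was 0.43 (SE 0.15, unadjusted p = 0.0226, adjusted p = 0.318). On 1421117_at and 1450119_at the highest value of all 8 was that of knockout array 4. For 4 arrays against 4, a complete separation has an exact permutation p of 0.0286 (2-sided), the smallest this design allows. Leaving out each array in turn kept the brightest *Dst* probe set and 1450119_at at an unadjusted p under 0.05 in all 8 fits, 1421117_at in 5 and 1421276_a_at in 4. Without both knockout array 1 and wild-type array 1, the brightest gave 0.32 (unadjusted p = 0.0339 in limma) and 1450119_at 0.74 (unadjusted p = 0.0587). There 1421117_at gave 0.50 (unadjusted p = 0.139) and 1421276_a_at 0.30 (unadjusted p = 0.154).

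RefSeq (GRCm38.p6) lists 2 starts of *Dst* that lie 148665 bases apart. The 250 bases before each are shown because the *Dst* probe sets measure a gene with several promoters, and those before the start of *Nid1* because it was the other higher member whose brightest probe set had an unadjusted p under 0.05 and no overlap. Sequences run 5′ to 3′ on the gene's strand, and capitals mark matches to the GC box (GGGCGG on either strand) and the CCAAT box (CCAAT on either strand).
Dst, upstream start: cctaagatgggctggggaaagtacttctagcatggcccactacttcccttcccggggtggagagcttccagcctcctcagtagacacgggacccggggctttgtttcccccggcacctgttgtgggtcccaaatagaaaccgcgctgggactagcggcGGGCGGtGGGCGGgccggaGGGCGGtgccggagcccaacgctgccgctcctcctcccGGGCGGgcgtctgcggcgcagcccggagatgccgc
Dst, second start: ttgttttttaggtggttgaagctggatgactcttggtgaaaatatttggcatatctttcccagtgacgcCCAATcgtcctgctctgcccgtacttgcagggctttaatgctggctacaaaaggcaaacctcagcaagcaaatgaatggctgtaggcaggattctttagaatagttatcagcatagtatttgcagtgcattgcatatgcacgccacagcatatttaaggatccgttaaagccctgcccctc
Nid1: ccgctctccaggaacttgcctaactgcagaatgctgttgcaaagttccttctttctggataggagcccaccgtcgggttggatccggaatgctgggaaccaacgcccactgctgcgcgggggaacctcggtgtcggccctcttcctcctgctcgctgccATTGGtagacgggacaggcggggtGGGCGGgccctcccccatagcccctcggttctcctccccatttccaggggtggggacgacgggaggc
The upstream *Dst* window (chr1:34011345-34011594, plus strand) held 4 GC box matches and the second (chr1:34160010-34160259, plus strand) held 1 CCAAT match and no GC box match. The *Nid1* window (chr13:13437352-13437601, plus strand) held 1 match to each. Among the 29 windows found for 25 members, 12 (41.4%) held a GC box and 6 (20.7%) a CCAAT box, against 32.7% and 33.8% of all 32851 windows. TATAAA, searched on the printed strand, was in 0 member windows and in 7.59% of all. The arrays do not show which start was used.

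Plectin, the other plakin, binds the tail of the beta chain encoded by *Itgb4* and links it to keratin. *Plec* read 12.61, 12.26, 12.33 and 12.30 in the knockout and 12.27, 12.31, 12.24 and 12.32 in the wild type. Knockout array 1 was the highest and the other 7 lay within 12.24 to 12.33. Fitted in limma, the log2 fold change was 0.087 (95% confidence interval -0.12 to 0.29, adjusted p = 0.725), and the other *Plec* probe sets gave 0.13 and -0.064.

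The chains of the hemidesmosome integrin had mean differences of opposite sign. *Itgb4*, whose long cytoplasmic tail contacts plectin, read 8.70, 8.16, 8.61 and 8.68 in the knockout and 8.26, 8.19, 8.15 and 8.19 in the wild type. Knockout array 2 sat among the wild-type arrays and the other 3 knockout arrays lay above all of them. The log2 fold change was 0.34 (SE 0.12, unadjusted p = 0.0204, adjusted p = 0.31), and without knockout array 1 it was 0.25 (unadjusted p = 0.0472). Without both knockout array 1 and wild-type array 1 it was 0.23 (unadjusted p = 0.111).

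*Itga6*, the alpha chain that pairs with it and also with *Itgb1*, had a lower mean in the knockout at both probe sets. The brightest read 11.81, 11.88, 12.06 and 11.92 in the knockout and 11.95, 12.07, 11.96 and 12.30 in the wild type, and the groups overlapped. Its log2 fold change was -0.15 (SE 0.0896, unadjusted p = 0.128, adjusted p = 0.526). Probe set 1422444_at read 9.31, 9.31, 9.51 and 9.36 in the knockout and 9.59, 9.63, 9.65 and 9.98 in the wild type, with every knockout array below every wild-type array. There the log2 fold change was -0.34 (SE 0.0928, unadjusted p = 0.00746, adjusted p = 0.26), and the unadjusted p stayed under 0.05 in all 8 fits that left out 1 array. Since levels of different probe sets share no scale, only the change in their difference can be read. The within-array difference, *Itgb4* minus the brightest *Itga6* probe set, was -3.11, -3.72, -3.44 and -3.24 in the knockout and -3.69, -3.88, -3.82 and -4.11 in the wild type. The change in this difference was 0.496, which follows from the log2 fold changes of both chains given above, and knockout array 2 overlapped the wild-type arrays.

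The 2 laminin chains of the hemidesmosome analysed here had lower means. *Lama3*, the alpha chain that the integrin binds, read 10.88, 10.80, 11.05 and 10.49 in the knockout and 11.25, 11.34, 11.35 and 11.15 in the wild type. All knockout arrays lay below all wild-type arrays, with means of 10.80 ± 0.235 and 11.27 ± 0.0906 (SD, n = 4 each). This gave a log2 fold change of -0.47 (SE 0.12, unadjusted p = 0.00498, adjusted p = 0.237), and it ran from -0.59 to -0.36 over the 8 fits that left out 1 array, all at an unadjusted p under 0.05. The other *Lama3* probe set had a mean of 4.82, near background, and a log2 fold change of 0.049. *Lamb3*, a beta chain that assembles with it, read 9.12, 8.98, 9.17 and 9.65 in the knockout and 9.31, 9.49, 9.46 and 9.63 in the wild type. Knockout array 4 was the highest of all 8 and the other 3 knockout arrays lay below every wild-type array. Fitted in limma, the log2 fold change was -0.24 (SE 0.14, unadjusted p = 0.121, adjusted p = 0.516).

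**Figure D2:**
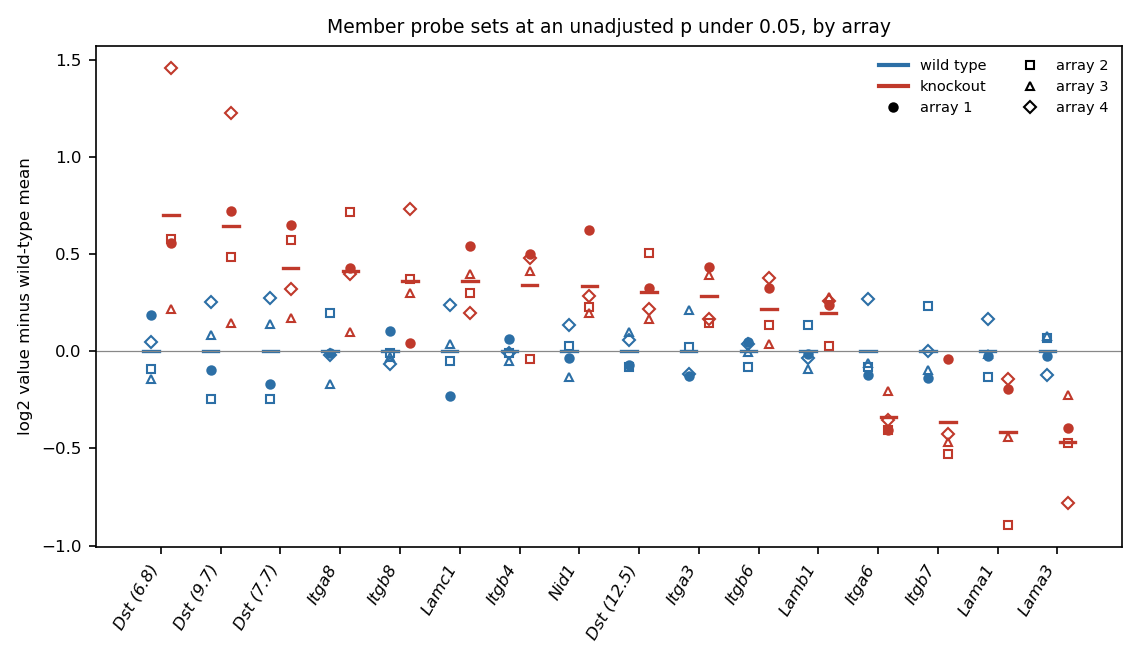
Log2 value on each array minus the wild-type mean of that probe set (vertical axis) for the 16 member probe sets at an unadjusted p under 0.05, wild-type arrays at the left and knockout arrays at the right of each pair, with a symbol for each array number and bars at the group means. The number after *Dst* is the mean log2 value that tells its 4 probe sets apart, *Itga6*, *Itga3*, *Itgb6* and *Lamb1* stand for a probe set other than the brightest, and 12 probe sets have a knockout mean above 0 and 4 below.

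Markers of basal epithelium, the cells that carry most hemidesmosomes, also had higher means in the knockout. Their mean log2 level was 10.84, 10.47, 10.68 and 10.85 on knockout arrays 1 to 4 and 10.56, 10.40, 10.56 and 10.18 on wild-type arrays 1 to 4. All 5 basal markers had a higher mean, against 46.2% of all genes, and the median of the 5 was 0.21. It was 0.37 on array day 1 and 0.081 on array day 2, where *Krt5* and *Trp63* had lower means. At an unadjusted p under 0.05 in limma, 2 were higher (background 6.27%). These were *Krt17* with a log2 fold change of 0.50 (adjusted p = 0.368) and *Krt15* with 0.40 (adjusted p = 0.313). For *Krt17*, knockout array 1 was the highest, at 8.11. *Dst* and *Itgb4* had higher means, as the 5 basal markers did over all arrays, while *Itga6*, *Lama3* and *Lamb3* had lower ones. The part of basal cells in these values was not tested.

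The remaining laminin chains were mixed. Over the 10 laminin genes, 3 were higher and 7 lower on average, with a median log2 fold change of -0.16 (-0.048 on array day 1 and -0.25 on array day 2). *Lama1*, the alpha chain of the laminin of the early embryo, read 6.87, 6.17, 6.62 and 6.92 in the knockout and 7.04, 6.93, 7.05 and 7.23 in the wild type. The 4 knockout arrays were all under the wild-type range, and knockout array 2 was the lowest. The log2 fold change was -0.42 (SE 0.16, unadjusted p = 0.0309, adjusted p = 0.344), with an unadjusted p under 0.05 in 3 of the 8 fits that left out 1 array. Without knockout array 1 it was -0.55 (unadjusted p = 0.0048).

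*Lamc1*, the gamma chain shared by most laminins, had a higher mean in the knockout. It read 10.20, 9.96, 10.06 and 9.86 in the knockout and 9.43, 9.61, 9.70 and 9.90 in the wild type. Knockout array 4 lay below wild-type array 4, and the other 3 knockout arrays lay above all wild-type arrays. This gave a log2 fold change of 0.36 (SE 0.12, unadjusted p = 0.0175, adjusted p = 0.301), and the second probe set gave 0.24 (unadjusted p = 0.0724). Without knockout array 1 and wild-type array 1 the value was 0.19 (unadjusted p = 0.129).

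Among the beta chains, *Lamb1* gave 0.036 at its brightest probe set, -0.056 without knockout array 1 and -0.21 without both arrays 1. A further *Lamb1* probe set, 1451241_at, read 6.69, 6.48, 6.73 and 6.71 in the knockout and 6.44, 6.59, 6.36 and 6.42 in the wild type, so that only knockout array 2 lay among the wild-type arrays. Its log2 fold change was 0.20 (SE 0.0845, unadjusted p = 0.0459, adjusted p = 0.381). *Lamb2*, found in vessel and muscle basement membranes, read 10.65, 10.61, 10.57 and 10.80 in the knockout and 10.80, 10.78, 10.98 and 10.80 in the wild type. Wild-type array 3 was its highest value, and the log2 fold change was -0.18 (SE 0.0819, unadjusted p = 0.0614, adjusted p = 0.418). *Lama2*, the alpha chain of muscle laminin, had a log2 fold change of -0.25 (adjusted p = 0.652), and without knockout array 1 and wild-type array 1 it was -0.50 (unadjusted p = 0.0045, adjusted p = 0.216). *Lama4*, a vascular chain, gave 0.056 and, without knockout array 1, -0.053. *Lama5*, the main alpha chain of adult epithelia, gave -0.011 (95% confidence interval -0.35 to 0.33), which was 0.016 without knockout array 1 and -0.14 without both arrays 1. *Lamc3* gave -0.14, and -0.28 without both.

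*Nid1* encodes nidogen, which bridges laminin and type IV collagen. Its brightest probe set read 10.36, 9.96, 9.93 and 10.02 in the knockout and 9.70, 9.76, 9.60 and 9.87 in the wild type. All knockout arrays lay above all wild-type arrays, knockout array 1 the farthest, and the log2 fold change was 0.34 (SE 0.12, unadjusted p = 0.0203, adjusted p = 0.31). Without knockout array 1 it was 0.23 (unadjusted p = 0.0293), and without wild-type array 1 as well it was 0.20 (unadjusted p = 0.085). The other *Nid1* probe sets gave -0.034 and -0.064. *Nid2*, which RefSeq places on the same chromosome as *Olfm4*, gave -0.099. *Hspg2*, the gene of perlecan, gave -0.21 (adjusted p = 0.766) and, without both arrays 1, -0.44. Its second probe set, with a mean of 6.89, gave -0.59 (unadjusted p = 0.087 in limma, adjusted p = 0.468).

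Markers of fibroblasts, the main matrix-producing cells of the stroma, read 10.62, 10.14, 10.24 and 10.56 in the knockout and 10.08, 10.30, 10.03 and 10.20 in the wild type as a mean log2 level. All 6 had a higher mean in the knockout, against 46.2% of all genes, and 0 of them an unadjusted p under 0.05 in limma. Their part in the values of *Nid1* and *Lamc1* was not tested.

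**Figure D3:**
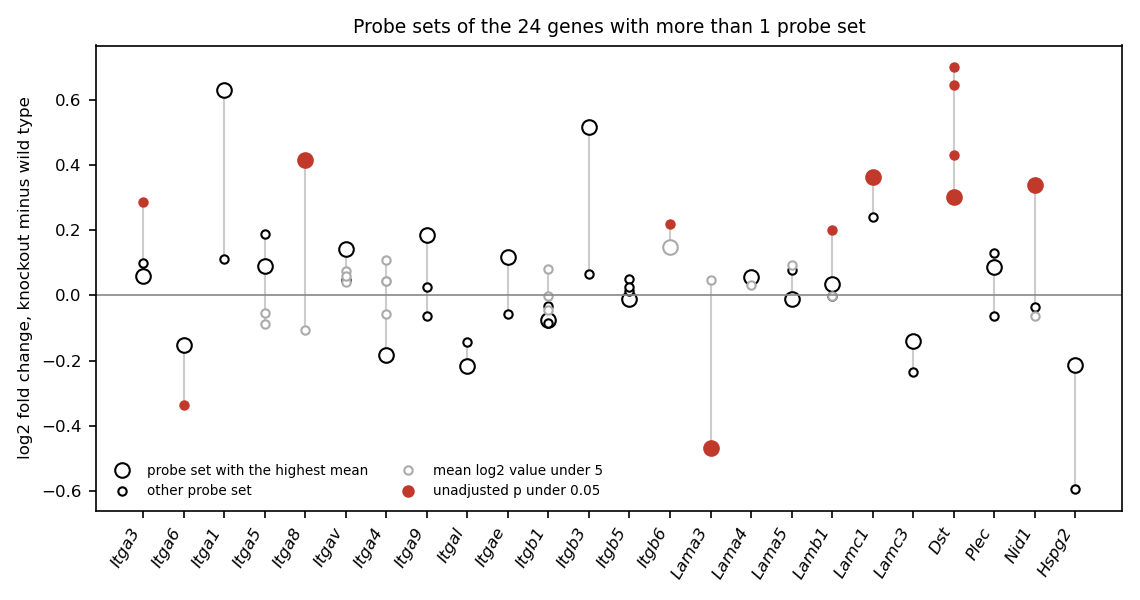
Log2 fold change (knockout minus wild type, vertical axis) of every probe set of the 24 member genes with several, with a large circle for the probe set of highest mean, grey for a mean log2 value under 5 and red for an unadjusted p under 0.05. All 4 *Dst* probe sets lie above 0, while those of *Nid1*, *Lama3* and *Plec* lie on both sides of it.

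Of the 24 genes with several probe sets, 12 had all their probe sets on 1 side of 0, *Dst* among them. *Itgb1*, the beta chain that pairs with most alpha chains, had 6 probe sets between -0.084 and 0.081, and its brightest gave -0.075 (95% confidence interval -0.22 to 0.072). *Itga3*, a laminin receptor of epithelia, read 11.14, 10.34, 10.50 and 10.48 in the knockout and 10.42, 10.55, 10.45 and 10.80 in the wild type at its brightest probe set. Knockout array 1 was the highest, and the log2 fold change of 0.060 became -0.14 without it and -0.24 (unadjusted p = 0.0321) without both arrays 1. Its probe set 1460305_at read 7.55, 7.26, 7.51 and 7.28 in the knockout and 6.99, 7.14, 7.33 and 7.00 in the wild type, with knockout arrays 2 and 4 below wild-type array 3. The log2 fold change there was 0.29 (SE 0.10, unadjusted p = 0.0254, adjusted p = 0.326).

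Among integrins that bind the RGD motif of matrix proteins, *Itga8* and *Itgb8* had higher means in the knockout. *Itga8*, a receptor for nephronectin in smooth muscle and mesenchyme, read 9.36, 9.65, 9.03 and 9.33 in the knockout and 8.92, 9.13, 8.76 and 8.91 in the wild type. Knockout array 3 lay below wild-type array 2, and the other 3 knockout arrays lay above all wild-type arrays. Fitted in limma, the log2 fold change was 0.42 (SE 0.13, unadjusted p = 0.0123, adjusted p = 0.282), at an unadjusted p under 0.05 in all 8 fits that left out 1 array and 0.44 without knockout array 1. A second *Itga8* probe set had a mean of 3.06, near background, and gave -0.11.

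*Itgb8*, which pairs with *Itgav* in a receptor that activates latent TGF-beta, read 8.81, 9.14, 9.07 and 9.50 in the knockout and 8.87, 8.76, 8.74 and 8.70 in the wild type. Knockout array 1 lay below wild-type array 1, the other 3 knockout arrays lay above all wild-type arrays, and knockout array 4 was the highest. The log2 fold change was 0.36 (SE 0.13, unadjusted p = 0.0232, adjusted p = 0.318), and 0.46 without knockout array 1 (unadjusted p = 0.00659). Its partner *Itgav* read 12.73, 12.99, 12.73 and 12.66 in the knockout and 12.54, 12.68, 12.66 and 12.66 in the wild type. Knockout array 2 was highest and wild-type array 1 lowest, and the log2 fold change was 0.14 (SE 0.0772, unadjusted p = 0.106, adjusted p = 0.497).

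*Itgb6*, an epithelial partner of *Itgav*, read 3.55, 3.36, 3.26 and 3.60 in the knockout and 3.27, 3.14, 3.22 and 3.26 in the wild type at probe set 1432281_a_at, whose mean of 3.33 is near background. The knockout and wild-type arrays overlapped, with a log2 fold change of 0.22 (SE 0.0911, unadjusted p = 0.0439, adjusted p = 0.376). *Itgb5*, a further partner of *Itgav*, gave -0.010 (95% confidence interval -0.27 to 0.25). *Itga5*, the fibronectin receptor chain, read 9.83, 8.93, 8.62 and 8.84 in the knockout and 8.65, 9.74, 8.45 and 9.03 in the wild type. Knockout array 1 and wild-type array 2 were high, and the log2 fold change of 0.092 became -0.13 without knockout array 1.

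*Itgb7*, the beta chain that lymphocytes use for homing to mucosa, had a lower mean in the knockout. It read 7.43, 6.94, 7.00 and 7.04 in the knockout and 7.33, 7.70, 7.37 and 7.47 in the wild type. Knockout array 1 lay at the level of the wild-type arrays and the other 3 knockout arrays lay below them. This gave a log2 fold change of -0.37 (SE 0.12, unadjusted p = 0.0197, adjusted p = 0.309), and without knockout array 1 it was -0.47 (unadjusted p = 0.00348, adjusted p = 0.211). *Itga4*, 1 of its partners, read 7.47, 7.36, 7.38 and 7.91 in the knockout and 7.58, 8.07, 7.37 and 7.82 in the wild type, with overlap and a log2 fold change of -0.18 (SE 0.18, unadjusted p = 0.342, adjusted p = 0.719). *Itgae*, the other partner, read 9.78, 8.16, 7.99 and 8.50 in the knockout and 9.07, 8.40, 8.38 and 8.11 in the wild type. Knockout array 1 was its highest value and wild-type array 1 the next, and the log2 fold change of 0.12 became -0.30 without knockout array 1 and -0.047 without both. The other *Itgae* probe set gave -0.057.

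Over all arrays, 2 of the 4 leukocyte alpha chains had a higher mean and 2 a lower one. *Itgal*, the LFA-1 chain of lymphocytes, read 5.68, 5.39, 5.56 and 5.35 in the knockout and 5.69, 5.84, 5.50 and 5.81 in the wild type. The groups overlapped, and the log2 fold change was -0.22 (SE 0.11, unadjusted p = 0.09, adjusted p = 0.471). *Itgax* gave -0.14, *Itgam*, near background at its brightest probe set, gave 0.014, and *Itgb2*, their common beta chain, gave 0.033. Leaving out knockout array 1 gave -0.29 for *Itgal*, -0.20 for *Itgax*, 0.0071 for *Itgam* and -0.077 for *Itgb2*, so that with *Itgae* 3 of the 4 alpha chains had a lower mean. The 8 leukocyte markers had a mean log2 level of 9.55, 9.04, 9.39 and 9.50 in the knockout and 9.76, 9.84, 9.30 and 9.55 in the wild type. All 8 had a lower mean in the knockout, against 9787 of all 18193 genes, and the lowest gene mean was 5.54. At an unadjusted p under 0.05 in limma, 1 was lower (background 8.49%), *Cd3e*, with a log2 fold change of -0.66. The part of leukocytes in the value of *Itgb7* was not tested.

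For another set of integrins, the size or the sign of the value depended on knockout array 1. *Itga1*, a collagen receptor of smooth muscle and stroma, read 9.92, 8.50, 8.61 and 8.64 in the knockout and 8.48, 8.42, 8.02 and 8.22 in the wild type. All knockout arrays lay above all wild-type arrays, by a wide margin only for array 1, and the log2 fold change was 0.63 (SE 0.31, unadjusted p = 0.079, adjusted p = 0.455). Without knockout array 1 it was 0.27 (unadjusted p = 0.0565 in limma), and without both arrays 1 it was 0.34 (unadjusted p = 0.0392, adjusted p = 0.355). The second *Itga1* probe set gave 0.11. *Itgb3*, found on vessels and platelets, read 9.47, 7.97, 8.28 and 8.21 in the knockout and 8.07, 7.99, 7.74 and 8.06 in the wild type, with a log2 fold change of 0.52 (SE 0.31, unadjusted p = 0.137, adjusted p = 0.538) and 0.15 without knockout array 1.

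*Itga2*, the collagen receptor chain of epithelia and platelets, read 6.74, 4.64, 4.80 and 4.68 in the knockout and 4.96, 4.60, 4.83 and 4.74 in the wild type. Only knockout array 1 stood out, and all other arrays read 4.60 to 4.96, under 5, the limit for a mean near background. The log2 fold change of 0.44 (adjusted p = 0.727) became -0.092 without knockout array 1. *Itga7*, a laminin receptor of muscle, read 7.73, 6.65, 6.77 and 6.70 in the knockout and 6.51, 6.99, 7.19 and 6.89 in the wild type, and its value of 0.067 became -0.16. *Itga9*, a receptor for tenascin, read 8.90, 7.95, 7.85 and 7.85 in the knockout and 7.96, 8.17, 7.64 and 8.05 in the wild type, and its value of 0.18 became -0.074. For both, knockout array 1 lay above all wild-type arrays and the other 3 knockout arrays lay among them. *Itga2b*, the platelet chain that pairs with *Itgb3*, read 8.32, 7.39, 7.24 and 7.17 in the knockout and 7.94, 7.35, 7.25 and 7.23 in the wild type, and its value of 0.087 became -0.19. Here knockout array 1 and wild-type array 1 were both high. *Itga10*, a collagen receptor of cartilage, differed in the other way, with -0.30 over all arrays and -0.066 without knockout array 1.

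Knockout array 1 was the highest of the 8 arrays for 16 of the 39 members (41%), against 3226 of all 18193 genes (17.7%). It was also the highest for the smooth muscle, fibroblast and endothelial marker lists, as given above, and their part in these values was not tested. Over the 8 fits that left out 1 array, the unadjusted p stayed under 0.05 in 7 for *Nid1* and *Lamc1*, in 6 for *Itgb4* and in 5 for *Itgb7* and *Itgb8*. For *Itga3* (1460305_at) it did so in 3, for *Lamb1* (1451241_at) in 2 and for *Itgb6* (1432281_a_at) in 1.

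**Figure D4:**
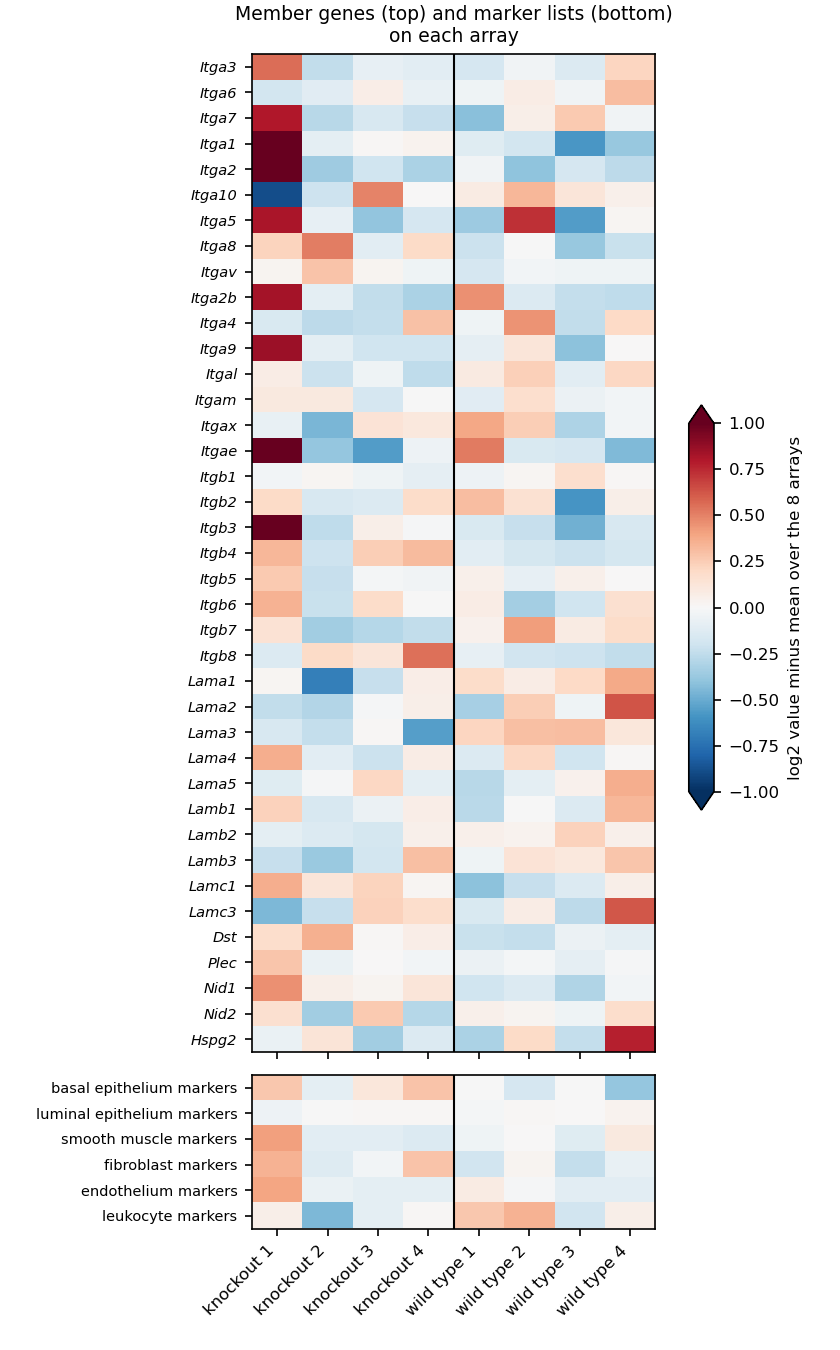
Log2 value on each array, less the mean over the 8 arrays, of each member gene (brightest probe set) and of marker lists. The lists shown are basal, luminal, smooth muscle, fibroblast, endothelial and leukocyte. Colours end at -1 and 1, and values beyond them are drawn in the end colour. Knockout array 1 carries the highest values of *Itga1*, *Itga2*, *Itgb3*, *Itga7* and *Itga9* and of the smooth muscle, fibroblast and endothelial lists.

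**Figure D5:**
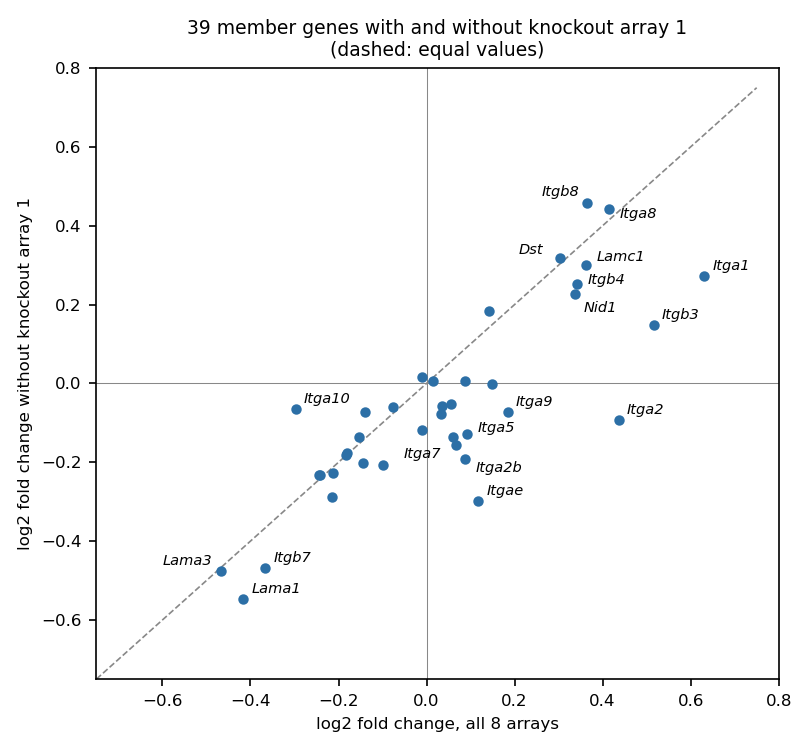
Log2 fold change of the 39 member genes over all 8 arrays (horizontal axis) against that without knockout array 1 (vertical axis), 1 point per gene, with the dashed line at equal values. *Dst*, *Itga8*, *Itgb8*, *Lama3*, *Lama1* and *Itgb7* lie near the line or farther from 0 than before, and *Itga1*, *Itgb3* and *Itga2* lie well below it.

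Genes that work with these proteins were read from a list of 44, of which 40 were measured. None was called at an adjusted p under 0.05 in limma, 5 had a higher and 2 a lower mean at an unadjusted p under 0.05 (backgrounds 6.27% and 8.49% of all genes), and 19 of the 40 had a higher mean (background 46.2%). *Ntn4*, which encodes netrin-4, a basement membrane protein that binds laminin gamma chains, had the smallest p. It read 8.97, 8.78, 8.73 and 8.87 in the knockout and 8.17, 8.39, 8.15 and 8.07 in the wild type. Every knockout array lay above every wild-type array, with means of 8.84 ± 0.107 and 8.19 ± 0.136 (SD, n = 4 each). Fitted in limma, the log2 fold change was 0.64 (SE 0.085, unadjusted p = 9.24e-05, adjusted p = 0.0695), with a 95% confidence interval of 0.45 to 0.84. The adjusted p was under 0.05 in 4 alternatives, at 0.0426 without array day, 0.0492 with median centring, 0.0421 with quantile normalization and 0.0371 with only probe sets of a mean log2 value of at least 7. It was 0.146 by analysis of variance and up to 0.672 over all alternatives, and a second *Ntn4* probe set gave -0.016.

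Of the other partners, the adaptor talin 2 (*Tln2*) read 8.59, 8.72, 8.98 and 9.13 in the knockout and 9.43, 9.32, 9.41 and 9.17 in the wild type. All knockout arrays lay below all wild-type arrays, and the log2 fold change was -0.48 (SE 0.12, unadjusted p = 0.00399, adjusted p = 0.225), while the other *Tln2* probe sets gave -0.17 and -0.018. The type IV collagen chains *Col4a5* and *Col4a6* gave 0.30 (unadjusted p = 0.0186) and -0.28 (unadjusted p = 0.0398). The kinase gene *Ptk2b* gave 0.42, the actin linker *Vcl* 0.18 and the matrix ligand *Tnc* 0.25, at unadjusted p of 0.0384, 0.039 and 0.0498. The 4 hemidesmosome partners did not reach that p, with 0.33 for *Col17a1*, the collagen that spans the membrane, 0.28 for the laminin receptor *Bcam*, -0.16 for the tetraspanin *Cd151* and -0.038 for *Dag1*.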

How the data were processed

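The authors made the deposited values with the RMA algorithm, which removes background, makes the distributions of all arrays equal (quantile normalization) and gives 1 log2 value per probe set. The sources used here name no version. Detection calls were not used, so a probe set with a mean under 5 on the log2 scale was called near background. The number of arrays limits the precision. The labels name Trizol for RNA extraction and the methods a column kit, and the methods give 5 mice per genotype where 4 arrays per genotype were analysed here.

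Knockout and wild type were fitted in R 4.3.3 with limma 3.58.1 (lmFit, eBayes, 2-sided tests). Array day entered the model as a block, as each day held 2 arrays of each genotype. After removal of 64 control probe sets, p-values were corrected by Benjamini-Hochberg over 45037 probe sets, of which 34945 had 1 gene symbol, 932 several and 9160 none. For values per gene, the probe set of highest mean over the 8 arrays was used (the brightest). Differences are on the log2 scale, and levels of different probe sets were not compared. Promoter windows and chromosomes came from RefSeq (GRCm38.p6), to which 18032 of 18193 genes matched.

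The members and all lists were chosen with earlier results of these data known. Values are given array by array for the hemidesmosome genes, for genes with any probe set at an unadjusted p under 0.05, for the member with the largest difference in each role and for members with 1 array far from its group. Partner genes at an unadjusted p under 0.05 are named. *Itga3* and *Itga5* (brightest probe sets), *Itgae* and the hemidesmosome partners were added after their values were seen. The alternatives were the fit without array day, ANOVA (the test that the methods name), blocks by replicate number, an intensity trend, array weights, centring, quantile normalization, cyclic loess, filters at a mean of 5 and 7, either array day by itself, averaging all probe sets of a gene, and each array left out in turn. Leaving out both arrays numbered 1 was chosen after seeing the data.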

Additional observations from a re-analysis of the deposited data

Results flagged for a closer look

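In 8 of the 78 groups of 4 arrays examined for the 39 member genes, 1 array lay apart from the other 3 of its genotype, by the gap to its nearest neighbour as a share of the group's range (above Dixon's 95% critical value). Chance alone passes this limit in about 1 in 20 groups. Knockout array 1 accounted for 4 of them. It read 6.74 for *Itga2*, where the other knockout arrays read 4.64 to 4.80, near background (share 0.922). For *Itga9* it read 8.90, against 7.85 to 7.95 (share 0.903). For *Itga1* it read 9.92 against 8.50 to 8.64 (share 0.901), and for *Itga7* 7.73 against 6.65 to 6.77 (share 0.892).

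The remaining 4 involved other arrays. Wild-type array 3 was high for *Lamb2* at 10.98, against 10.78 to 10.80 in the other wild-type arrays (share 0.865). Knockout array 2 was low for *Itgb4* at 8.16, against 8.61 to 8.70 (share 0.841). Wild-type array 1 was low for *Itgav* at 12.54, against 12.66 to 12.68 (share 0.835), and high for *Itga2b* at 7.94, against 7.23 to 7.35 (share 0.831).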

How the results depend on the processing

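Under every alternative run, 0 member probe sets passed an adjusted p under 0.05. On array day 1 alone, 13 member genes were higher and 26 lower on average, with 5 probe sets higher and 1 lower at an unadjusted p under 0.05, and on array day 2 alone 7 were higher and 5 lower. These are 6.98% and 14.0% of the members, against 5.88% and 9.99% of all probe sets. Without knockout array 1 and wild-type array 1 the median was -0.12, with 11 genes higher and 28 lower. At that p, 4 probe sets were higher and 9 lower, together 15.1% of the members, against 13.3% of all probe sets. With each array left out in turn, the median ran from -0.077 to 0.081, the genes higher from 12 to 24 and lower from 15 to 27, and the probe sets higher from 7 to 13 and lower from 2 to 9. Taking both directions, the probe sets were 10.5% to 18.6% of the members, against 8.91% to 13.6% of all probe sets. The sign turned for *Itga2* (-0.11 on array day 1, -0.092 without knockout array 1, -0.033 without both arrays 1, up to 0.75 with another array left out), *Itga2b* (-0.38 on array day 1, -0.053 with array weights, -0.19 without knockout array 1, -0.025 without wild-type array 3, up to 0.32), *Itga7* (-0.011 with array weights, -0.16 without knockout array 1, -0.0026 without wild-type array 1, -0.30 without both, up to 0.28), *Itga9* (-0.15 on array day 1, -0.074 without knockout array 1, -0.077 without both, up to 0.31) and *Plec* (-0.0096 without both). The cause was not tested. For the 29 probe sets run under the alternatives, the others changed no direction. The sign also turned without knockout array 1 for the brightest probe sets of *Itga3*, *Itga5*, *Itgae*, *Itgb2*, *Itgb6*, *Lama4*, *Lama5* and *Lamb1*. All of these turned on array day 1 as well, and all but *Itgb2* and *Lama5* turned without both arrays 1. *Itga10* and *Itgam* turned on array day 1, *Itgam* also without both, and *Itgb5* and *Hspg2* on array day 2. Under the remaining alternatives these genes were not read singly. Same-numbered arrays correlated at 0.336, 0.173, 0.0433 and -0.00559 in their deviations, and only knockout array 1 correlated best with its own number, so the numbers were not taken as pairs. With the replicate block in place of array day, 12 member probe sets were higher and 5 lower at an unadjusted p under 0.05. Together they were 19.8% of the members, against 12.4% of all probe sets. Of them, 14 were shared with the 16, and 0 were called.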
